A study of Mus musculus with 45 samples.

Results

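The genes followed here, Prg2, Epx, Ear1, Ear2, Ear6, Rnase2a, Siglecf and Alox15, are 8 markers of eosinophils, described through 4 tissues of mice carrying mammary tumors of different invasiveness. The 8 were chosen by name, and the choice rested on earlier results of these same libraries, in which Prg2, Rnase2a and Alox15 marked 4T07 tumors or scaffolds. All 8 were found among the 55367 gene symbols of the count table, of which 39225 had at least 1 count. Because 4T07 scaffolds and 4T07 tumors chose the genes, levels there are given as a description, with no test.

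Eosinophils are granulocytes that mature in bone marrow under interleukin-5 and leave it for the lung, the gut and sites of type 2 inflammation or wound repair. Their granules are packed with a few abundant proteins: major basic protein (Prg2), eosinophil peroxidase (Epx) and small ribonucleases, which in the mouse are the Ear family (Ear1, Ear2, Ear6 and Rnase2a). Transcripts of the granule proteins are made mainly by the maturing precursor, whereas the surface receptors Siglecf and Ccr3 and the 12/15-lipoxygenase Alox15 are features of the mature cell. None of these genes is restricted to eosinophils: alveolar macrophages also carry Siglecf and several Ear transcripts, and macrophages can carry Alox15.

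Female Balb/c mice received a porous polycaprolactone scaffold under the skin at 7 to 8 weeks of age, and 2 weeks later 67NR, 4T07 or 4T1 cells in a mammary fat pad. Controls carried no tumor. The 3 lines are related triple-negative mammary carcinoma lines of the same strain: 67NR tumors stay local, 4T07 cells invade without forming metastases, and 4T1 cells metastasize. Tissue was taken on day 14, giving 15 groups of 3 libraries: scaffold, lung and spleen from each of the control, 67NR, 4T07 and 4T1 mice, and primary tumor from the 3 tumor-bearing groups. The labels do not link the tissues of 1 mouse, and p-values measure the spread between these libraries only. Libraries are named here by their numbers, 1 to 45, and held 3491888 to 8175380 counts (median 5149589). A level is given in CPM, a gene's count scaled to a library total of 1000000, and 3 counts in a library, the limit that a count of 0 allows, correspond to between 0.367 and 0.859 CPM. In bulk tissue, fewer cells of a type and less RNA per cell cannot be told apart.

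One group did not match its tissue label. The 3 lung libraries of the 4T07 mice (25, 26 and 27) held RNA of spleen and pancreas. Tlx1, Nkx2-3 and Nkx2-5, transcription factors of spleen stroma, summed to between 19.3 and 27.9 CPM in these lungs, against 0.324 to 1.05 in control lungs and 34.2 to 42.4 in 4T07 spleens. The 3 erythroid precursor genes Klf1, Rhag and Epb42 summed to between 347 and 516 CPM there, against 1.62 to 5.59 in control lungs. The 3 digestive enzyme genes Ctrb1, Prss2 and Try4 of the exocrine pancreas, a gland that lies against the spleen, summed to between 103 and 151 CPM, against 0.349 to 0.902 in control lungs and 0.206 to 138 in 4T07 spleens. The 6 genes of lung epithelium, led by surfactant protein C (Sftpc), summed to between 5834 and 14578 CPM, against 35733 to 37929 in control lungs. In the lungs of 4T1 mice the spleen stroma genes summed to between 0.6 and 2.09 CPM and the lung epithelium genes to between 29113 and 36206, in or near the control range. Their erythroid genes, at 9.60 to 23.0 CPM, and pancreas genes, at 2.12 to 5.31, were above every control lung and far below the 4T07 lungs. Lung epithelium genes were also counted outside lungs. They summed to between 67.0 and 282 CPM in control and 26.7 and 255 in 4T07 scaffolds. In tumors they ran from 56.4 to 387.5 CPM in 67NR and from 14.1 to 103 in 4T07 mice. The medians, 70.05, 57.8, 88.4 and 28.7 CPM, lay far below the highest library each time. In spleens they ran from 3.92 to 12.1 CPM in control and from 40.4 to 86.7 in 4T07 mice. The source of this RNA was not tested. The values of these 15 marker genes were known when they were picked. Results on 4T07 lungs are therefore given beside those in 4T1 lungs, and the part of spleen RNA in them was not tested.

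**Figure D1:**
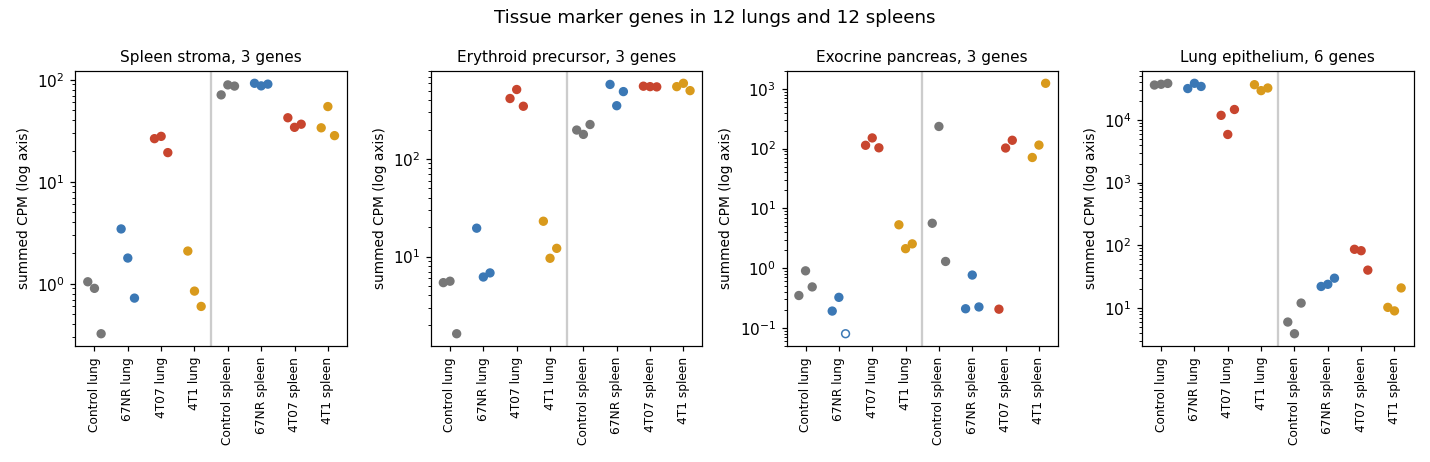
Summed CPM (log axis) of spleen stroma, erythroid precursor, exocrine pancreas and lung epithelium genes in the 12 lungs and 12 spleens, 1 point a library, the open point being 0 counts. The 3 lungs labelled 4T07 lie between 19.3 and 27.9 CPM for spleen stroma genes, above every other lung, and between 5834 and 14578 CPM, below every other lung, for lung epithelium genes.

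The 4 ribonuclease members lie on mouse chromosome 14 and are close copies of one another. Their promoter windows, from 200 bases before the annotated start to 30 from the start on (RefSeq, build GRCm38.p6), are shown because the 4 genes, almost alike here, had different levels over the tissues. The window of Epx, whose levels over the 45 libraries were among those most like Ear6, is shown beside them. Each is printed 5′ to 3′ on the gene's own strand, and capitals mark GATAA on either strand, the core letters read by GATA factors such as Gata1, which is needed for eosinophil development.
Ear1, chr14:43819610-43819839, minus strand: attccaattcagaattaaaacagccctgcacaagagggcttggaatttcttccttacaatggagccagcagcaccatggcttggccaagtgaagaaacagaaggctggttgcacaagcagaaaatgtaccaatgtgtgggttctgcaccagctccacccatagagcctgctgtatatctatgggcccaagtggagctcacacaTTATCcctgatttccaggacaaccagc
Ear2, chr14:44102454-44102683, plus strand: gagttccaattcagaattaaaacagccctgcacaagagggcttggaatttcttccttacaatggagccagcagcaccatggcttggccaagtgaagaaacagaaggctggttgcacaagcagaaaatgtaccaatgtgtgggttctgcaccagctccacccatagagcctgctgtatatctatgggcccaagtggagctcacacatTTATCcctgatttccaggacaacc
Ear6, chr14:51853568-51853797, plus strand: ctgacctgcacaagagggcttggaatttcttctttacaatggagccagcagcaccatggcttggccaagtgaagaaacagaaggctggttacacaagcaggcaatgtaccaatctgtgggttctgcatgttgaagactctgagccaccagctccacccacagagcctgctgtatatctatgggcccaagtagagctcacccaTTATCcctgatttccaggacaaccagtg
Rnase2a, chr14:51256083-51256312, minus strand: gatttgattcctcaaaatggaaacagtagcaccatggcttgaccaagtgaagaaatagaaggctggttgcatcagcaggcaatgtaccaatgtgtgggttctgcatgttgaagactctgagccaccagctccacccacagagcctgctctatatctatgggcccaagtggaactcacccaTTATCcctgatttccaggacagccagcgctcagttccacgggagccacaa
Epx, chr11:87875507-87875736, minus strand: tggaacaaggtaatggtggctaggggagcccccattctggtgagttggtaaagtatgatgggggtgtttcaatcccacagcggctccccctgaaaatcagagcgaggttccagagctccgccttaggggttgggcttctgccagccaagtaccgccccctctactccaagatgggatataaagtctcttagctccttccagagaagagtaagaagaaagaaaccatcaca

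The windows of Ear1 and Ear2 were the same at 99.6% of 227 aligned bases, and those of the other pairs at 89.7 to 95.2%. All 4 ribonuclease windows held GATAA on the strand opposite to the gene, close to the annotated start, and 20.0% of the 32851 promoter windows of this length in the table hold GATAA on some strand. The Epx window had no match, and the Siglecf window had 1. No window was given for Prg2 and Alox15. The C/EBP letters TTGCNNAA were found in the windows of Ear1 and Ear2 and in 8.3% of all windows. Over the whole transcript Ear1 and Ear2 were the same at 96.8% of bases and the other pairs at 79.5 to 86%. Over the last 200 bases of the transcript, where 3′ libraries place their reads, Ear1 and Ear2 were the same at 99% of bases and shared a run of 86, and the other pairs were the same at 83.1 to 92.6% with runs of 26 to 42. A read can therefore fit both Ear1 and Ear2, and how the counting dealt with such reads is not given in the sources used here, so the split of counts between these genes is uncertain. The close relatives Ear10, Ear14 and Rnase2b were at 0 counts in all 45 libraries.

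**Figure D2:**
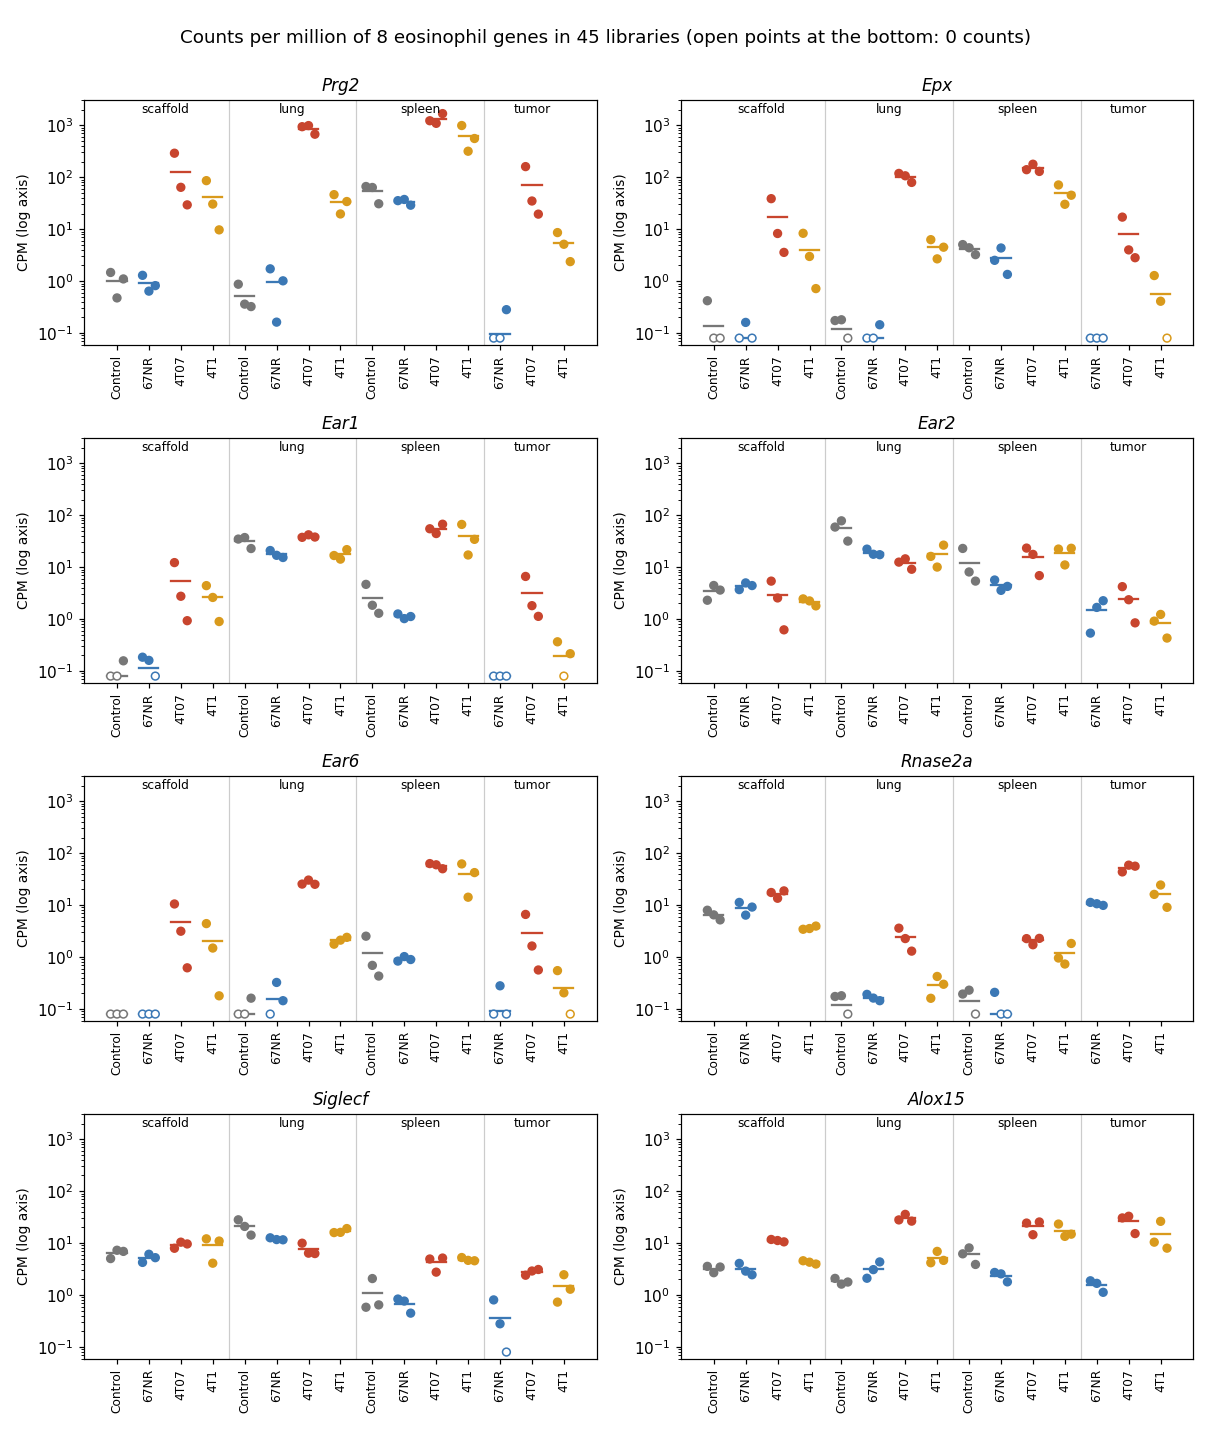
CPM (log axis) of each of the 8 genes in 45 libraries, grouped by tissue and tumor line. Short lines mark group means and open points 0 counts. Prg2, Epx and Ear6 rise together in 4T07 and 4T1 mice, Ear1, Ear2 and Siglecf are high in lungs, and Rnase2a is high in 4T07 tumors (43.6 to 58.8 CPM) and near 0 in control lungs and spleens.

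In tumor-free mice the 8 genes fell into groups by tissue. Of the granule protein genes, Prg2, Epx and Ear6 had their highest means in spleen. Prg2 stood at 66.2, 63.5 and 30.8 CPM in control spleens, at 1.47, 0.475 and 1.10 in control scaffolds and at 0.872, 0.361 and 0.324 in control lungs. The spleens did not overlap with the other tissues, and Prg2 was 52.7-fold higher there than in scaffolds and 103-fold higher than in lungs (adjusted p = 3.5e-08 and 9.3e-09, edgeR quasi-likelihood test). Folds here and below are ratios of mean CPM, whereas log2 differences, SEs and adjusted p-values come from the edgeR fit with TMM-scaled libraries, so a fold and its log2 difference are not the same number. Epx, with 3.23 to 5.05 CPM in control spleens, had 2 counts in all in the 3 control lungs and 2 in the 3 control scaffolds. The ratio of spleen to lung was 37.1, with a 95% interval of 9.83 to 313 that covers counting error only (adjusted p = 5.5e-05). Ear6 had 0 counts in the control scaffolds and was at least 2.31-fold higher in spleens, a call that could not be made without spleen library 7, since Ear6 then did not pass the filter on low counts.

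Lung held the members shared with alveolar macrophages. Ear2 was 59.1, 77.9 and 31.7 CPM in control lungs, against 22.9, 8.08 and 5.39 in spleens and 2.31, 4.43 and 3.62 in scaffolds. Ear1 was 34.7, 37.2 and 22.8 CPM in lungs and 4.66, 1.85 and 1.29 in spleens, with 1 count in all in the 3 scaffolds. The lungs did not overlap with either other tissue for these 2 genes, with 4.64-fold (Ear2) and 12.1-fold (Ear1) more than in spleens (adjusted p = 0.00065 and 1.7e-06, edgeR). Siglecf, the inhibitory lectin that marks mouse eosinophils and alveolar macrophages, was 28.1, 20.9 and 14.2 CPM in lungs, 5.03, 7.28 and 6.93 in scaffolds and 0.583, 2.08 and 0.647 in spleens, an order in which each step was called (3.29-fold and 5.82-fold, adjusted p = 0.0012 and 0.00013). Rnase2a had the opposite placing from Ear1 and Ear2: 7.97, 6.49 and 5.20 CPM in control scaffolds, and 2 counts in all in the lungs and 2 in the spleens. Alox15 was 6.21, 8.08 and 3.88 CPM in spleens, 3.57, 2.69 and 3.46 in scaffolds and 2.09, 1.62 and 1.78 in lungs. Its spleens were 3.31-fold above lungs (adjusted p = 0.00078), and scaffolds and spleens, 1.87-fold apart, were not called as different (adjusted p = 0.088, under the fold threshold). The difference between scaffolds and lungs was called (adjusted p = 0.037) but fell under the fold threshold when any 1 of 4 libraries was left out. A call here, and for lungs, spleens and scaffolds throughout, needs an adjusted p under 0.10 and a fold over 2.

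Of the 8 members, 5 were called between control lungs and scaffolds, 7 between spleens and scaffolds and 7 between spleens and lungs, beside 32.6%, 34.5% and 39.9% of all 21602 genes. Without spleen library 7, Ear2 was no longer called between spleens and scaffolds (adjusted p = 0.18).

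Spleens of 4T07 and 4T1 mice held many times more granule protein RNA than spleens of control or 67NR mice. Prg2 stood at 1221, 1089 and 1676 CPM in 4T07 spleens and at 989, 316 and 556 in 4T1 spleens, against 66.2, 63.5 and 30.8 in control and 35.4, 37.3 and 28.9 in 67NR spleens. Neither 4T07 nor 4T1 spleens overlapped with control or 67NR spleens. Prg2 was 24.8-fold higher in 4T07 and 11.6-fold higher in 4T1 than in control spleens (log2 difference 4.80 with SE 0.39 and 3.79 with SE 0.38, adjusted p = 4.6e-07 and 2.6e-06, edgeR). Epx rose from 5.05, 4.38 and 3.23 CPM in control to 140, 178 and 129 in 4T07 and 71.0, 30.1 and 45.0 in 4T1 spleens. The log2 difference from control was 5.30 (SE 0.35) for 4T07 and 3.77 (SE 0.35) for 4T1. The 4T07 spleens stood above the 4T1 spleens without overlap for Epx, the 1 member called between these groups (log2 difference -1.53, SE 0.28, adjusted p = 0.0094). For Prg2 the difference between the lines had an adjusted p of 0.14, and was called when control spleen 9 or 4T1 spleen 40 was left out (0.069 and 0.054).

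Of the 4 ribonuclease genes, Ear6, Ear1 and Rnase2a rose as well. Ear6 was 63.0, 59.7 and 50.1 CPM in 4T07 spleens and 62.1, 14.2 and 42.3 in 4T1 spleens, against 2.52, 0.692 and 0.431 in control spleens. Its log2 difference from control was 5.65 (SE 0.52, adjusted p = 1.8e-06) for 4T07 and 5.20 (SE 0.52, adjusted p = 2.8e-06) for 4T1. Ear1, at 4.66, 1.85 and 1.29 CPM in control spleens, reached 54.8, 44.4 and 67.0 in 4T07 and 66.4, 17.1 and 34.3 in 4T1 spleens, 21.3-fold and 15.1-fold above control. Ear2, the near-identical copy of Ear1, did not follow: 23.3, 17.6 and 6.87 CPM in 4T07 and 22.3, 11.0 and 23.1 in 4T1 spleens overlapped with the 22.9, 8.08 and 5.39 of control spleens (adjusted p = 0.40 and 0.17). Control spleen 7 held the 22.9, and without it Ear2 was called in both comparisons (adjusted p = 0.023 and 0.0060), and without 4T1 spleen 41 in the second (adjusted p = 0.090). Rnase2a rose on low counts, from 2 counts in all in control to 29 in 4T07 and 15 in 4T1 spleens (ratios 14.5, 95% interval 3.66 to 125, and 8.38, interval 1.95 to 75.6, adjusted p = 0.0015 and 0.010).

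Siglecf and Alox15, tied to the mature cell, rose too. Siglecf was 4.94, 2.76 and 5.16 CPM in 4T07 and 5.27, 4.65 and 4.57 in 4T1 spleens, 3.89-fold and 4.38-fold above control spleens (adjusted p = 0.0027 and 0.00082). Alox15, whose enzyme oxidizes polyunsaturated fatty acids, was 24.3, 14.5 and 25.5 CPM in 4T07 and 23.3, 13.5 and 14.9 in 4T1 spleens, 3.54-fold and 2.84-fold above control (adjusted p = 0.00016 and 0.00041). Neither gene overlapped with control spleens. Of the 8 members, 7 rose against control in each of the 4T07 and 4T1 spleens, with medians of 4.16 and 3.43 on the log2 scale, beside 18.6% and 19.9% of all 21128 genes called and medians over all genes of -0.094 and -0.096. Against 67NR spleens 8 of 8 rose in both lines, beside 14.7% and 20.7% of all genes. Between 4T1 and 4T07 spleens 1 member was called, beside 2.33%.

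**Figure D3:**
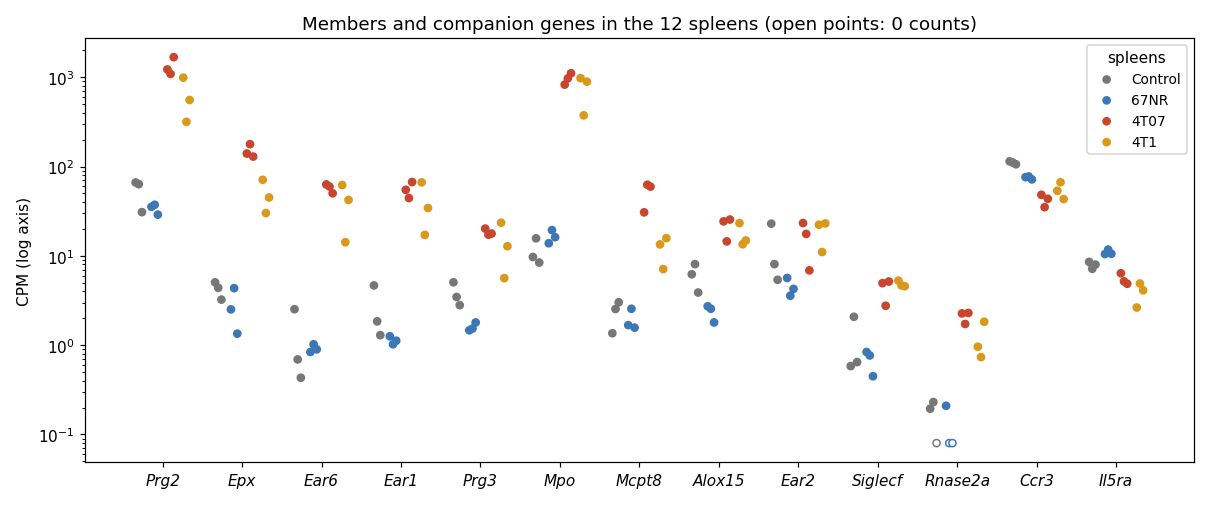
CPM (log axis) of members and companion genes in the 12 spleens, 1 point a library, by tumor line. Granule genes other than Ear2, the neutrophil precursor gene Mpo and the basophil gene Mcpt8 lie higher in 4T07 and 4T1 spleens. Ccr3 falls from 106 to 114 CPM in control to 35.0 to 48.2 in 4T07 spleens.

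In spleens of 67NR mice no member was called higher than in control. Prg2, Epx and Ear6 overlapped with control spleens (adjusted p = 0.27, 0.40 and 0.80). Alox15 alone was called, 2.57-fold lower at 2.72, 2.56 and 1.79 CPM (adjusted p = 0.046), beside 2.26% of all genes. The call was lost when any 1 of 4 libraries was left out, control spleens 7 or 8 or 67NR spleens 16 or 18 (adjusted p from 0.12 to 0.22). Without control spleen 9, Prg2 and Ear2 were called lower in 67NR spleens (adjusted p = 0.069 and 0.025), and Ear2 also without 4T07 spleen 30 (adjusted p = 0.075).

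Other eosinophil genes moved in both directions in spleen. Of 14 listed genes, 9 could be tested in spleens. Cebpe, a transcription factor of late granulocyte precursors, was higher in 4T07 and 4T1 spleens by 4.89 and 3.89 (log2) (adjusted p = 2.3e-07 and 2.0e-06), and Prg3, a second major basic protein, by 2.43 and 2.13 (adjusted p = 0.00022 and 0.00067). Of the 9, 5 rose and 1 fell in 4T07 spleens, and 4 rose and 0 fell in 4T1 spleens. The gene that fell was Ccr3, the eotaxin receptor of mature eosinophils: 114, 111 and 106 CPM in control, 48.2, 35.0 and 43.5 in 4T07 and 53.5, 66.6 and 43.2 in 4T1 spleens. In 67NR spleens it was 76.0, 77.4 and 71.8 CPM, also below every control spleen. Ccr3 fell by 1.22 on the log2 scale (SE 0.17, adjusted p = 7.6e-05) in 4T07 spleens, and the 4T1 difference of -0.77 (SE 0.17, adjusted p = 0.0027) was under the fold threshold. Il5ra, the receptor chain for interleukin-5, was 8.54, 7.15 and 7.98 CPM in control, 6.38, 5.18 and 4.87 in 4T07 and 2.64, 4.90 and 4.11 in 4T1 spleens. In 67NR spleens it was 10.5, 11.75 and 10.5 CPM, above every control spleen. The 4T07 and 4T1 spleens lay below control without overlap, and neither difference was called (adjusted p = 0.32 and 0.039, the latter at a log2 difference of -0.77).

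Genes of other granulocytes and their precursors stood beside these rises. All 10 listed genes of neutrophil precursors rose in 4T07 and in 4T1 spleens, with medians of 6.59 and 6.10 on the log2 scale, larger than those of the members. Myeloperoxidase (Mpo) went from 9.71, 15.7 and 8.41 CPM in control to 826.5, 971 and 1107 in 4T07 and 976, 374 and 892 in 4T1 spleens. The basophil protease genes Mcpt8 and Prss34 rose by 4.65 and 5.497 in 4T07 and by 2.66 and 4.49 in 4T1 spleens. Mast cell and basophil genes as a list counted 5 of 10 higher and 0 lower in 4T07, and 2 higher and 2 lower in 4T1 spleens. The part of these cells in the members' rise was not tested.

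Of the genes that call eosinophils in, 3 of 9 were called in 4T07 and 1 of 9 in 4T1 spleens, beside the 18.6% and 19.9% of all genes, the background for the lists below as well. Il5 itself had at most 2 counts in any lung or spleen and did not pass the filter on low counts there. Among 9 tested genes for eosinophil-recruiting chemokines and type 2 cytokines, 2 rose and 1 fell in 4T07 spleens. Ccl8 rose by 5.99 on the log2 scale. Ccl7, at 0 counts in the control spleens and 0 to 4.94 CPM in 4T07 spleens, was called (adjusted p = 0.0081), although 1 of the 4T07 spleens was at 0 as well. Ccl24, an eotaxin, fell by 1.17 (adjusted p = 0.0036). In 4T1 spleens 1 rose, Ccl8 by 1.51 (adjusted p = 0.016), and 0 fell. Among 12 receptor and signalling genes, 3 rose in 4T07 and 4 in 4T1 spleens. These included Csf2rb, the signalling chain shared by the interleukin-3, interleukin-5 and GM-CSF receptors (1.51 and 1.97), and Il1rl1, the interleukin-33 receptor (1.79 and 1.70). Of 11 lipoxygenase and leukotriene genes, 5 rose and 1 fell in 4T07 and 3 rose in 4T1 spleens, led by the 5-lipoxygenase Alox5 (3.74 and 3.76), which neutrophils also express. All 10 markers of mature neutrophils rose in the same spleens, and their summed level went from between 967 and 1657 CPM in control to between 20416 and 25583 in 4T07 and between 11498 and 28857 in 4T1 spleens. None of the 10 was at 0 in any of these groups, and the part of neutrophils in the rise of Alox5 was not tested.

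In lungs, a rise of the granule genes was seen in 4T1 and 4T07 mice, and a fall of Ear2 in all tumor groups. In 4T1 lungs, where spleen stroma genes were near control levels, Prg2 was 46.2, 19.6 and 34.0 CPM, against 0.872, 0.361 and 0.324 in control and 1.72, 0.162 and 1.01 in 67NR lungs. It was 64.2-fold higher than in control (log2 difference 5.97, SE 0.45, adjusted p = 1.9e-08, edgeR) without overlap. Epx had 88 counts in 4T1 lungs and 2 in control lungs, a ratio of 38.5 (95% interval 10.3 to 323, adjusted p = 1.1e-05). Ear6 had 42 counts against 1, a ratio of 36.7 (95% interval 6.24 to 1485, adjusted p = 8.6e-05). Alox15 was 4.19, 6.92 and 4.65 CPM in 4T1 lungs, 2.87-fold above control without overlap (adjusted p = 0.0038). Fitting the control, 67NR and 4T1 lungs without the 4T07 lungs gave the same number of calls.

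The same genes were higher still in the lungs labelled 4T07, which held spleen RNA as described. Prg2 was 938, 986 and 673 CPM there, Epx 118, 107 and 79.4, Ear6 25.4, 30.4 and 25.2 and Alox15 27.9, 35.7 and 26.5. Against control lungs the fold was 1669 for Prg2 and 16.4 for Alox15, and the ratio of counts was 887 for Epx (95% interval 245 to 7334) and 472 for Ear6 (84.2 to 18680). Rnase2a had 34 counts there and 2 in control lungs, a ratio of 20.9 (5.37 to 180). All 5 were called (adjusted p between 4.8e-13 and 6.9e-05). In 4T1 lungs Rnase2a had 6 counts, at most 3 in a library, and was not called (adjusted p = 0.51). Beside these values, Tlx1 was 14.6, 13.8 and 11.1 CPM in the same libraries and 0.523, 0.541 and 0.324 in control lungs, and Klf1 was 226, 297.5 and 187 against 2.27, 1.98 and 0.971.

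Gene by gene, the 4T07 lungs held a large share of the level in 4T07 spleens. Relative to the 4T07 spleen mean, the 4T07 lung mean was 65.2% for Prg2, 68.1% for Epx, 70.6% for Ear1, 75.5% for Ear2 and 46.8% for Ear6. It was 80.5% for Prg3, 80.0% for Mpo, 74.3% for Klf1, 88.0% for Tlx1, 52.6% for Nkx2-3 and 25.1% for Nkx2-5. In 4T1 mice the shares of the 4T1 spleen mean were 5.37% for Prg2, 9.21% for Epx and 5.30% for Ear6, beside 5.45% for Mpo, 2.50% for Klf1 and 4.41% for Tlx1, and they were 44.8% for Ear1 and 93.4% for Ear2. For Siglecf and Alox15 the 4T07 lungs stood above the spleens, at 176% and 140%.

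**Figure D4:**
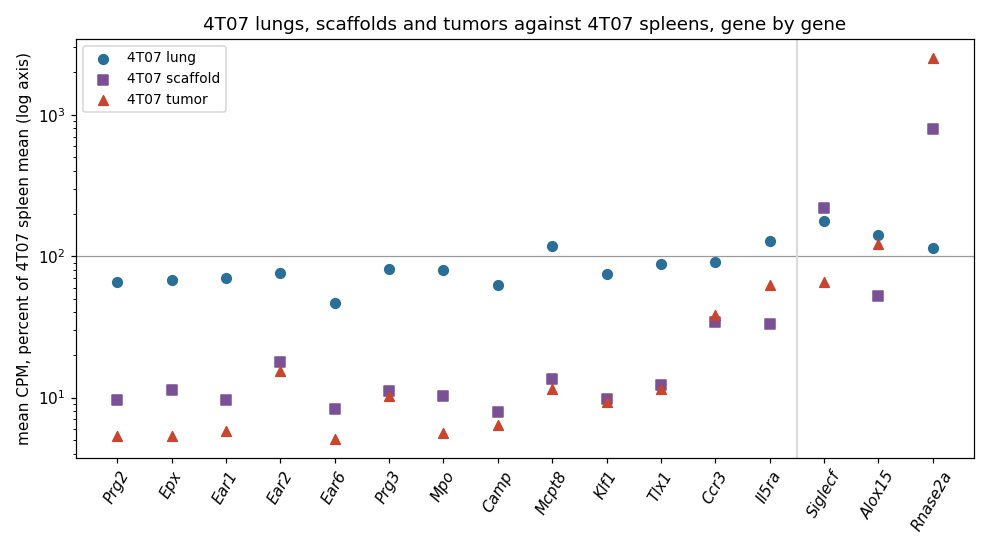
Mean CPM of each gene in 4T07 lungs, scaffolds and tumors as a percent of its mean in 4T07 spleens (log axis), for members and companion genes. From Prg2 to Tlx1 the genes lie at 46.8 to 118% in lungs and at 5.10 to 17.9% in scaffolds and tumors, Ccr3 and Il5ra lie higher, and Rnase2a reaches 794% in scaffolds and 2523% in tumors.

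Ear2 fell in the lungs of all tumor-bearing mice. It was 59.1, 77.9 and 31.7 CPM in control, 22.2, 17.7 and 17.4 in 67NR, 12.5, 14.5 and 9.11 in 4T07 and 16.1, 10.0 and 26.5 in 4T1 lungs. No tumor-bearing lung reached the lowest control lung, and the fall was 2.94-fold, 4.68-fold and 3.20-fold (adjusted p = 0.0024, 1.1e-05 and 0.0010, edgeR). Ear1 was lower than in control in 67NR (20.9, 16.9 and 15.3 CPM) and 4T1 lungs (16.7, 14.3 and 21.7), without overlap. The folds of 1.78 and 1.80 were under the threshold (adjusted p = 0.0070 and 0.012), and Ear1 was called when control lung 6, the lowest control, was left out (adjusted p = 0.00069 and 0.0014), and also without 67NR lung 13 and 4T1 lung 39 respectively. In 4T07 lungs Ear1 was 37.5, 41.9 and 38.0 CPM, above every control lung and not called (adjusted p = 0.13). Siglecf was 12.6, 11.7 and 11.6 CPM in 67NR, 9.95, 6.40 and 6.29 in 4T07 and 15.9, 16.1 and 19.0 in 4T1 lungs. It fell in 4T07 lungs (2.79-fold, adjusted p = 8.5e-05), was below control without overlap in 67NR lungs at 1.76-fold (adjusted p = 0.017, called without control lung 6), and overlapped with control in 4T1 lungs (adjusted p = 0.48).

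Of 10 markers of alveolar macrophages, 3 fell in 67NR lungs, 6 in 4T1 lungs and 9 in 4T07 lungs, beside 1.73%, 1.05% and 13.7% of all genes called lower. The other 7 in 67NR and 4 in 4T1 lungs were not called, and Marco, which spleen macrophages also express, rose in 4T07 lungs. Fabp1 was 22.7, 38.4 and 57.9 CPM (lowest, median and highest) in control, 14.6, 15.1 and 15.9 in 67NR and 11.0, 15.4 and 16.6 in 4T1 lungs, lower by 1.49 and 1.45 on the log2 scale (adjusted p = 0.0021 and 0.00087). Krt79 fell by 1.29 and 1.21 (adjusted p = 0.030 and 0.041), with 1 of the 67NR lungs inside the control range. The summed level of the 10 markers ranged from 406 to 500 CPM in control, 374 to 505 in 67NR, 318 to 416 in 4T1 and 199 to 249 in 4T07 lungs, a sum led by Car4, which blood vessels also express. The 67NR lungs thus covered the whole control range. None of the 10 was at 0 in any lung group. The 10 listed markers of monocytes and macrophages summed to between 2656 and 3429 CPM in control and 1701 and 2090 in 67NR lungs. Their sums were 2010 to 2240 CPM in 4T07 lungs and 2414 to 2864 in 4T1 lungs, the last overlapping with control. The summed markers of Ly6C-low monocytes overlapped with control lungs in every tumor group. The part of alveolar macrophages or monocytes in the fall of Ear2, Ear1 and Siglecf was not tested.

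Of the 8 members, 1 was called in 67NR against control lungs, 7 in 4T07 and 5 in 4T1, beside 4.25%, 29.0% and 4.61% of all 21937 genes. Against 67NR lungs 6 were called in 4T07 and 3 in 4T1, beside 29.7% and 5.03%. The 3 in 4T1 were Prg2, Epx and Ear6, joined by Alox15 when 67NR lung 15 was left out (adjusted p = 0.075). Between 4T1 and 4T07 lungs 7 were called, beside 23.5% of all genes, 6 lower and Siglecf higher in 4T1, the latter under the fold threshold without 4T07 lung 27. The median log2 difference of the members was 1.39 in 4T1 against control lungs and -0.281 in 67NR against control lungs, beside medians over all genes of -0.0025 and 0.031.

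Genes of granulocytes and their precursors rose in lungs as well. In 4T1 lungs 9 of 10 neutrophil precursor genes rose (median 5.45 on the log2 scale, and Mpo by 6.26), as did 5 of 9 other eosinophil genes, among them Cebpe by 5.11, Gata1 by 2.84 and Ccr3 by 1.26 (adjusted p = 1.8e-06, 0.0043 and 0.010). Prss34 had 95 counts in 4T1 lungs and 0 in control lungs, at least 9.18-fold higher, and Mcpt8 rose by 4.11. Of 10 recruitment genes 1 rose in 4T1 lungs, Ccl8 by 1.40 (adjusted p = 0.017), and 0 fell. In 4T07 lungs 3 rose and 1 fell, the last being Il33, an alarmin of lung epithelium, by 2.55 (adjusted p = 3.7e-08), where lung epithelium genes were low as a whole. In 4T1 lungs Il33 was 47.3, 28.2 and 50.2 CPM, below the 63.1 to 73.6 of control lungs, and the log2 difference of -0.66 was under the fold threshold (adjusted p = 0.061). Alox5ap and Alox5, the leukotriene pathway entry, rose in 4T1 lungs by 2.53 and 1.42, the 2 of 10 lipid mediator genes called. Beside them, the 10 mature neutrophil markers, all called higher, summed to between 236 and 309 CPM in control and between 11702 and 27495 in 4T1 lungs. The erythroid precursor genes Klf1, Rhag and Epb42 summed to between 9.60 and 23.0 CPM in 4T1 and between 1.62 and 5.59 in control lungs. The part of neutrophils, their precursors and erythroid precursors in these rises, that of Gata1 included, was not tested.

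The change against control differed between lung and spleen for several members. The differences are given as the log2 change in spleens minus that in lungs. A call here needs an adjusted p under 0.10 only, with no fold threshold. In 4T1 mice it was 4.96 for Ear1 (adjusted p = 7.2e-07), 2.54 for Ear2 (adjusted p = 0.0044) and 2.71 for Siglecf (adjusted p = 0.00042), all on the side of spleens. For Prg2 it was -2.16 (adjusted p = 0.058), on the side of lungs, and this call was lost without any 1 of 4 libraries (adjusted p from 0.10 to 0.16). Of 8 members 4 differed, beside 20.1% of all 24645 genes. In 4T07 mice, whose lungs held spleen RNA, 6 of 8 differed beside 25.3%: Prg2 by -5.79, Epx by -4.15, Alox15 by -1.98, Ear1 by 4.28, Siglecf by 3.66 and Ear2 by 2.84. In 67NR mice 0 of 8 differed by edgeR, beside 0.0730% of all genes, and 1 by DESeq2, beside 445 genes in all. By edgeR 1 member, Alox15, had an unadjusted p under 0.05, beside 2571 genes in all. Alox15 was called there without control spleen 9 or 67NR lung 13 (adjusted p = 0.033 and 0.036), and Ear6 in 4T07 mice without control spleen 9 or 4T1 spleen 41 (adjusted p = 0.094 and 0.043).

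In tumors, 4T1 was compared with 67NR at an adjusted p under 0.05 and a fold over 2. Alox15 was 10.4, 26.2 and 7.99 CPM in 4T1 and 1.88, 1.68 and 1.13 in 67NR tumors, 9.52-fold higher without overlap (log2 difference 3.02, SE 0.51, adjusted p = 0.00032, edgeR). Prg2 was 8.59, 5.12 and 2.37 CPM in 4T1 tumors and had 1 count in all in 67NR tumors, a ratio of 60.05 with a 95% counting interval of 10.5 to 2400 (adjusted p = 0.016). The Prg2 call was lost when 67NR tumor 19 or 20 or 4T1 tumor 43 was left out (adjusted p = 0.074, 0.061 and 0.055). Genes of neutrophil precursors stood beside it: Mpo was 8.96, 3.90 and 1.73 CPM in 4T1 and 0.806, 0.559 and 0 in 67NR tumors, with the same order of libraries as Prg2 in 4T1 tumors. Of 10 such genes 4 rose, and their summed level ranged from 142.5 to 187 CPM in 4T1 and from 8.06 to 27.1 in 67NR tumors. Their part in the Prg2 difference was not tested. Rnase2a, at 16.1, 24.4 and 9.06 CPM in 4T1 and 11.3, 10.6 and 9.88 in 67NR tumors, overlapped (adjusted p = 0.28). Epx and Ear1 had 0 counts in 67NR tumors and at most 7 and 2 counts in a 4T1 tumor, and were not called. Siglecf, with 22 counts against 4, was called only without 67NR tumor 19 (adjusted p = 0.045). Of 8 members 2 were called, beside 20.7% of all 20508 genes. Among 10 recruitment genes 5 rose and 2 fell in 4T1 against 67NR tumors. The eotaxin Ccl11 rose by 3.29 (adjusted p = 0.00042), Tslp by 2.81, Il33 by 1.83 and the eotaxin Ccl24 by 1.15, whereas the T cell chemokine Ccl5 fell by 2.602.

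The 4T07 tumors, which chose the members, held 2 kinds of pattern among their 3 libraries. Prg2 was 160, 34.8 and 19.5 CPM, Epx 17.1, 3.99 and 2.82, Ear1 6.62, 1.81 and 1.13, and Ear6 6.62, 1.63 and 0.564, with library 31 highest each time. Mpo ran the same way at 123, 23.9 and 16.1, as did Klf1 at 63.8, 16.7 and 7.90 and Tlx1 at 4.42, 0.726 and 0. Rnase2a did not: it was 43.6, 58.8 and 56.2 CPM, the highest of any tissue, and 9.88 to 11.3 in 67NR tumors. Nor did Alox15, at 30.5, 32.8 and 15.2 CPM, or Siglecf, at 2.41, 2.90 and 3.10. Thus library 31 held the most of the granule, erythroid and spleen genes and the least Rnase2a and Siglecf of the 3. The summed level of the 10 listed markers of alternatively activated and serous cavity macrophages was also highest in 4T07 tumors. It ranged from 1689 to 1759 CPM there, from 922 to 1202 in 4T1 and from 566 to 605 in 67NR tumors. Of the 10 genes, 1 was at 0 counts in the 4T07 tumors, and none was in the 4T1 or 67NR tumors. The part of these macrophages in the levels of Rnase2a and Alox15 was not tested.

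The 4T07 scaffolds repeated the split of Prg2, Epx, Ear1 and Ear6 from Rnase2a, Siglecf and Alox15. Prg2 was 290, 63.9 and 29.4 CPM, Epx 38.7, 8.26 and 3.57, Ear1 12.2, 2.75 and 0.932 and Ear6 10.5, 3.15 and 0.621, with library 22 highest. Mpo was 232, 40.9 and 24.4, Klf1 73.3, 13.6 and 6.37, and Tlx1 4.65, 0.393 and 0.466. Rnase2a was 17.5, 13.6 and 18.8 CPM, Siglecf 7.95, 10.4 and 9.63 and Alox15 11.7, 11.2 and 10.6, even over the 3 libraries. The part of spleen or erythroid RNA in the first set was not tested.

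**Figure D5:**
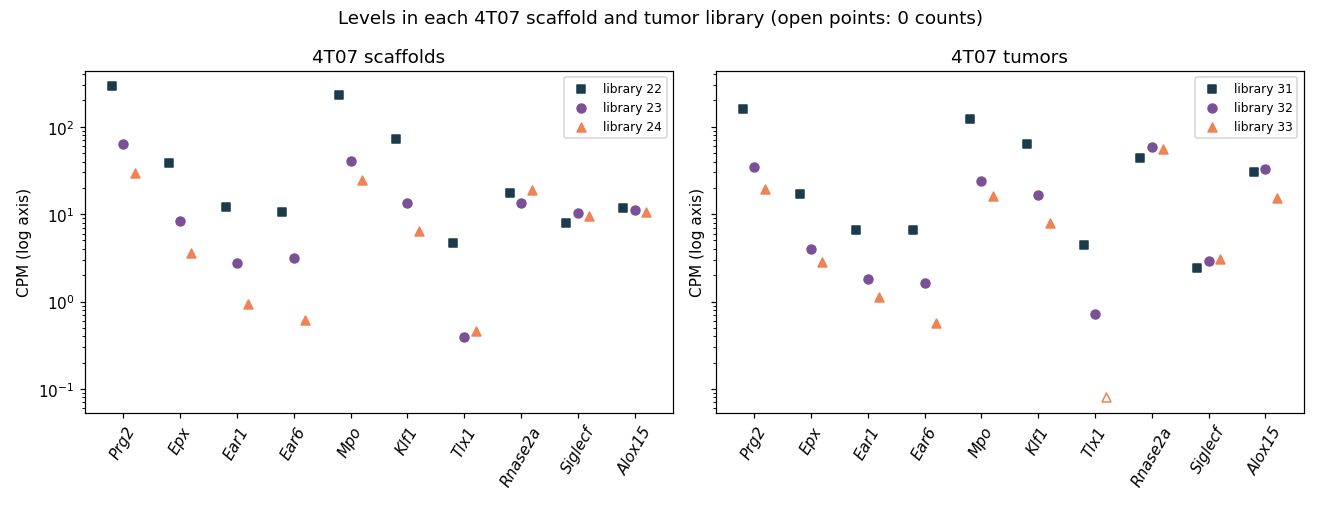
CPM (log axis) of members and of Mpo, Klf1 and Tlx1 in each 4T07 scaffold and tumor library, the open point being 0 counts. Library 22 among scaffolds and library 31 among tumors are highest for Prg2 (290 and 160 CPM), Epx, Ear1, Ear6, Mpo, Klf1 and Tlx1, and not for Rnase2a or Siglecf.

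Set against 4T07 spleens, the same split appeared in the means. In 4T07 scaffolds Prg2, Epx, Ear1 and Ear6 stood at 9.61, 11.3, 9.58 and 8.27% of the spleen mean, beside 10.2% for Mpo, 9.74% for Klf1 and 12.3% for Tlx1. In 4T07 tumors the 4 stood at 5.38, 5.34, 5.76 and 5.10%, beside 5.63% for Mpo, 9.24% for Klf1 and 11.45% for Tlx1. Of the same marker lists, Nkx2-3, Nkx2-5 and Elane stood lower, at 4.98, 1.83 and 2.39% in scaffolds and 2.19, 2.72 and 3.85% in tumors. Nkx2-5 had 1 count in all in each of these groups. Camp stood at 7.92 and 6.37%, Rhag at 10.0 and 10.7% and Epb42 at 14.2 and 11.7%. The means of Prg2, Epx, Ear1, Ear6, Mpo, Klf1 and Tlx1 rest on libraries 22 and 31. Without library 22 Prg2, Epx, Ear1 and Ear6 stood at 3.51, 3.97, 3.33 and 3.27% in scaffolds, beside 3.37% for Mpo, 3.12% for Klf1 and 2.87% for Tlx1. Without library 31 they stood at 2.04, 2.29, 2.66 and 1.91% in tumors, beside 2.07% for Mpo, 3.85% for Klf1 and 2.42% for Tlx1. The Tlx1 values then rest on few counts: 2 and 3 in scaffolds 23 and 24, and 4 and 0 in tumors 32 and 33. In those scaffolds Tlx1, at 0.393 and 0.466 CPM, lay below the 0.629 to 0.792 of control scaffolds. With all libraries, Rnase2a stood at 794% in scaffolds and 2523% in tumors, Siglecf at 218 and 65.4%, and Alox15 at 52.1 and 122%. Ccr3 was 14.6 CPM on average in 4T07 scaffolds and 16.1 in 4T07 tumors, and Il5ra 1.81 and 3.43.

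In scaffolds, none of the 8 members was called by edgeR in the comparisons that did not involve 4T07. Prg2 was 85.9, 30.4 and 9.70 CPM in 4T1 scaffolds, against 1.47, 0.475 and 1.10 in control and 1.29, 0.642 and 0.819 in 67NR scaffolds. The groups did not overlap and the mean was 41.4-fold above control and 45.7-fold above 67NR, and the adjusted p was 0.10 and 0.11. Library 34 was highest for Prg2 and also for other cells' genes. Mpo was 50.45, 9.51 and 7.18 CPM in 4T1 scaffolds against 0.633 to 1.05 in control scaffolds, and Klf1 16.5, 4.29 and 1.98 against 0.787 to 1.89. The 10 neutrophil precursor genes summed to between 83.5 and 370 CPM in 4T1 and between 9.92 and 20.1 in control scaffolds, and 0 of 10 were called against control and 1 against 67NR. Tlx1, of spleen stroma, was 0.180 to 0.653 CPM in 4T1 and 0.629 to 0.792 in control scaffolds. The part of neutrophil and erythroid precursors in the Prg2 difference was not tested. Without 4T07 scaffold 22, Prg2 was called in both (adjusted p = 0.013 and 0.013), as it was without 4T07 scaffold 24 or 4T1 scaffold 36 and in a fit without all 4T07 scaffolds. Ear1 was called against control scaffolds without library 22 as well (adjusted p = 0.078). Ear6 had 36 counts in 4T1 scaffolds and 0 in control and 67NR scaffolds, at least 3.86-fold and 3.98-fold higher (adjusted p = 0.27 and 0.33). Rnase2a was 3.43, 3.54 and 3.95 CPM in 4T1 scaffolds, below the 5.20 to 7.97 of control and the 6.42 to 11.3 of 67NR scaffolds without overlap, and was not called (adjusted p = 0.24 and 0.15).

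None of the 8 members was called in 67NR against control, 4T1 against control or 4T1 against 67NR scaffolds, beside 0%, 0.0226% and 0.0226% of all 22156 genes. At an unadjusted p under 0.05 the counts were 0, 5 and 7 of 8, beside 626, 2682 and 2234 genes in all. DESeq2 called 0, 1 and 2 of 8, beside 1, 64 and 48 genes in all. It gave no adjusted p to 7 members in 4T1 against control and to 6 in 4T1 against 67NR scaffolds. In 67NR against control scaffolds edgeR called 0 genes and DESeq2 1.

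Over the 45 libraries, which share tissues and groups and include the 4T07 scaffolds and tumors that chose the members, the genes most like each member were sought among 16721 genes of at least 1 CPM on average, by the correlation of log2(CPM + 1). Prg2 was most like Mpo (r = 0.98), Fcnb (0.98) and Epx (0.97), and Epx most like Fcnb, Mpo and Ms4a3 (0.99, 0.98 and 0.98). Ear6 was most like Prss57, Prss34 and Epx (0.98, 0.97 and 0.97). Mpo, Fcnb and Prss57 are genes of neutrophil precursors. Ear1 was most like Chil3 (0.97), a chitinase-like gene of both alveolar macrophages and neutrophil precursors, followed by Prom1 and Tuba8 (0.91 and 0.90). Ear2 was most like Tspan8, Atp8a1 and Smim6 (0.90, 0.89 and 0.89). Rnase2a was most like the metallothionein Mt1, the protease Adamts4 and Hoxc8 (0.94, 0.93 and 0.92), none of them among the genes like the other members. Siglecf was most like Gyg, Mtus1 and Mfap3l (0.90, 0.88 and 0.87), and Alox15 like Prss16, Plppr3 and Hoxa9 (0.85, 0.85 and 0.83).

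With each group's mean subtracted, so that only differences among the 3 libraries of a group remain, Prg2 stayed close to Epx (0.92), Ctsg (0.91) and Mpo (0.88), and Ear1 to Ear6 (0.91), Prg2 (0.87) and Ctsg (0.86). Ear6 was most like Ear1 (0.91), Ppbp (0.87) and Epx (0.87). The correlation of Prg2 with Rnase2a was 0.066, with Siglecf -0.042 and with Alox15 0.34. The top genes for Rnase2a, Siglecf and Alox15 then reached 0.60, 0.64 and 0.64, the last being Alox5. The correlations of Prg2, Epx, Ear1 and Ear6 with Rnase2a and Siglecf lay between -0.145 and 0.066. Over the 39 libraries other than 4T07 scaffolds and tumors, the correlations among these 4 genes lay between 0.625 and 0.851, and those with Rnase2a and Siglecf between -0.073 and 0.232. Prg2 and Mpo then had a correlation of 0.76.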

How the data were processed

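RNA of 45 tissue samples was sequenced as 3′ poly(A) libraries, a kit that places reads near the transcript's end. The authors deposited whole-number counts per gene symbol, without normalization. The submitters' processing notes name Trim Galore 0.5.0, STAR 2.6.0 and featureCounts. The genome build and the use of molecular identifiers in counting are not given in the sources used here. Counts were analysed with edgeR 4.0.16 in R 4.3.3 (TMM scaling, quasi-likelihood test, Benjamini-Hochberg adjustment over all genes), with 1 fit for each tissue, 1 for control tissues and 1 for lungs and spleens together. Genes with more than 10 counts summed over a fit were kept, and all 8 genes passed in each fit. Calls needed an adjusted p under 0.1 (tumors 0.05) and a fold over 2, the study's thresholds. For differences in change between lung and spleen, calls needed the adjusted p alone. Ratios with 1 to 3 counts in the lower group have exact 95% intervals, which, like the limit of 3 counts for a count of 0, cover counting error only. DESeq2 1.42.0 and other filters were alternatives, and the fits were tested on simulated data. None of 45 pairs of libraries within groups was identical. The 8 genes and the gene lists were chosen with earlier results of these data known. Named genes are the 8, up to 3 called genes of largest change per list and comparison, markers of a cell type set beside them, and for each of the 8 the 3 genes with the highest correlation. Other list genes, such as Il5ra, Il1rl1 and Ccl24, were named after their values were seen. Tissue marker lists, fits without the 4T07 libraries and values without libraries 22 or 31 were chosen after seeing the data. 1 tissue marker gene is not reported here.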

Additional observations from a re-analysis of the deposited data

Results flagged for a closer look

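The change against control differed between spleen and lung for 10 pairs of gene and tumor line by an interaction test over both tissues (edgeR, adjusted over 24645 genes). Values are the log2 change in spleens minus that in lungs. In 4T07 mice they were -5.79 for Prg2, -4.15 for Epx, 4.28 for Ear1, 2.84 for Ear2, 3.66 for Siglecf and -1.98 for Alox15, with adjusted p between 2.9e-07 and 0.0015. The 4T07 lungs held RNA of spleen and pancreas, and its part in these 6 values was not tested. In 4T1 mice they were -2.16 for Prg2, 4.96 for Ear1, 2.54 for Ear2 and 2.71 for Siglecf, with adjusted p between 7.2e-07 and 0.058. A fit without the 4T07 lungs gave the same number of calls for 4T1 mice.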

How the results depend on the processing

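No difference that was called, in the result as reported or under the alternative, changed sign under any alternative. Of 176 pairs of member and comparison, 20 that were not called changed sign or came to 0 under at least 1 alternative. When 1 library was left out, their log2 differences ranged as follows. In 67NR against control scaffolds they ran from -0.556 to 0.15 for Prg2, -2.78 to 1.93 for Epx and -0.35 to 0.036 for Alox15. In 67NR against control lungs Rnase2a ran from -0.20 to 0.72, and in 4T1 against 67NR lungs Ear1 ran from -0.086 to 0.25 and Ear2 from -0.45 to 0.28. In 67NR against control spleens Ear6 ran from -0.99 to 0.60 and Siglecf from -1.02 to 0.038, and in 4T1 against 4T07 spleens Ear2 ran from -0.0060 to 0.63. In 4T1 against 67NR tumors Ear6 ran from -0.057 to 3.39. In control lungs against control scaffolds Epx ran from -0.79 to 2.55 and Ear6 from 0 to 2.14, and in control spleens against lungs Rnase2a ran from -0.26 to 0.82. For the change in spleens minus that in lungs, the 67NR values ran from -0.36 to 1.71 for Epx, -0.75 to 0.39 for Ear1, -0.28 to 1.00 for Ear2 and -0.12 to 0.94 for Siglecf. The 4T07 value ran from -0.75 to 0.33 for Rnase2a, and the 4T1 values from -1.25 to 1.66 for Ear6 and -0.045 to 0.497 for Alox15. For Ear2, 4T1 against 67NR lungs gave 0.0054 as reported, -0.0017 by DESeq2, -0.0033 without the filter, -0.017 with at least 10 counts in every library and -0.0043 without the 4T07 lungs. The cause of these sign changes was not tested. No paired analysis was possible because the groups share no replicate numbers and the labels do not link the tissues of 1 mouse. Rnase2a in lungs and spleens, and Epx, Ear1 and Ear6 in scaffolds and 67NR tumors, rest on few counts. DESeq2 called 1 and 2 members in 4T1 against control and against 67NR scaffolds (0 and 0 by edgeR), beside 64 and 48 genes in all. It called 2 in 67NR against control spleens (1) and 2 in 4T1 against 4T07 spleens (1), beside 454 and 435 genes. In the 67NR difference between spleen and lung it called 1 (0), beside 445 genes, and over the scaffold comparisons 16 list genes (3). Without the filter on low counts 4 and 5 members were called in those scaffolds, 3 and 2 in those spleens, and 41 list genes in scaffolds. For this and the settings that follow, the share of all genes called was not computed, so these counts stand without that background. With only the compared groups in the fit, 1 member was called in 4T1 against 67NR scaffolds, and 5 list genes in scaffolds. Without the 4T07 scaffolds 1 member was called in each 4T1 comparison. Keeping genes with at least 10 counts in every library removed most members from the tests and left 0, 1 or 2 called: 2 in 4T07 against control lungs, 4T1 against 4T07 lungs and 4T07 and 4T1 against 67NR spleens, 1 in the other lung, spleen and control tissue comparisons that lost calls, and 0 in 4T1 against 67NR lungs, 4T1 against 4T07 spleens and 4T1 against 67NR tumors. List genes called then numbered 168 of 302 in lungs, 136 of 226 in spleens, 25 of 46 in tumors and 104 of 215 in control tissues. Leaving out 1 library gave 0 to 2 and 0 to 1 members in 4T1 against control and 67NR scaffolds, 1 to 3 in 67NR against control lungs, 0 to 3 in 67NR against control spleens, 1 to 2 in 4T1 against 4T07 spleens, 1 to 2 in tumors, 0 to 1 in the 67NR difference between tissues, and 0 to 22 list genes in scaffolds. By Spearman correlation 11 of the 24 most similar genes remained.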
